A study of Mus musculus with 2 samples.

Results

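Mir126a, Mir221 and Mir222 are 3 mouse miRNA genes known from blood vessel endothelium. They were taken by Ensembl gene identifier from the 1973 gene rows of the deposited tables, and each of the 3 had a row. The tables come from microRNA-seq, which counts short RNAs, here below 30 nucleotides, from total RNA. The tissue was heart from healthy mouse embryos of strain B6NCrl at 13.5 days, with male and female embryos pooled. The design has 1 group of 2 libraries, which the labels number as biological replicates 1 and 2 and tie to separate biosamples under 1 donor record, and it holds no second condition. How many embryos went into each biosample is not stated in the labels.

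MicroRNAs are short RNAs cut from hairpin transcripts. They guide Argonaute proteins to messenger RNAs, mostly through pairing of the seed, bases 2 to 8 of the mature RNA. Mir126a lies in Egfl7, a gene for a secreted endothelial protein. In mice its product miR-126 represses Spred1, an inhibitor of growth factor signalling, and mice without it have leaky embryonic vessels. The products of Mir221 and Mir222 are known to repress KIT, the receptor of stem cell factor, in human endothelial cells, and the cell cycle inhibitor CDKN1B in human tumour cells.

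On mm10, GENCODE M21 places the Mir126a hairpin (ENSMUSG00000065540.1) at chr2:26591357-26591429 on the plus strand. Of 9 Egfl7 transcripts that span it on that strand, 8 have it in an intron and 1 in an exon, and an intron of Gm20532 spans it too. Mir126b (ENSMUSG00000105799.1, chr2:26591363-26591420) lies on the minus strand inside the same hairpin and has no row of its own in the tables. Mir221 (ENSMUSG00000065422.1, chrX:19146294-19146388) and Mir222 (ENSMUSG00000065471.1, chrX:19146893-19146971) are both on the minus strand of the X chromosome, 504 nucleotides apart. No other gene of GENCODE M21 lies within 10000 nucleotides of them, and no transcript of another gene spans them on their strand.

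The mature sequences from RefSeq (GRCm38.p6) are shown because they set which member shares a seed with which other. They run 5′ to 3′ with the seed in capitals.
mmu-miR-126a-3p: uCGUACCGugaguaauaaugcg
mmu-miR-221-3p: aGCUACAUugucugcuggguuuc
mmu-miR-221-5p: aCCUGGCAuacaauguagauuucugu
mmu-miR-222-3p: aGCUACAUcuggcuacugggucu
The 3p products of Mir221 and Mir222 shared the seed GCUACAU and were identical over their first 8 bases, while miR-221-5p had another seed. Laid side by side from the 5′ end, miR-221-3p and miR-222-3p were identical at 11 of 23 positions. The seed of miR-126a-3p occurred in no other of the 1738 mature miRNAs of that table. The table lists no 5p product of Mir126a or Mir222, so the seeds of those arms were not searched. In the same table, miR-1928 was the other mature miRNA with GCUACAU. Its gene Mir1928 was at 0 counts in each library. For a count of 0, a limit of 3 counts is used, which is 0.539 CPM (counts per 1000000 sense counts) in replicate 1 and 0.497 CPM in replicate 2.

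The hairpins show how Mir126b sits on Mir126a. Capitals mark the mature sequences that the RefSeq table gives.
Mir126a: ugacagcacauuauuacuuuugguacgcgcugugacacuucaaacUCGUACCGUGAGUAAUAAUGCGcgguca
Mir126b: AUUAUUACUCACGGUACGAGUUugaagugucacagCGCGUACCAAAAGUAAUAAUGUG
Mir221: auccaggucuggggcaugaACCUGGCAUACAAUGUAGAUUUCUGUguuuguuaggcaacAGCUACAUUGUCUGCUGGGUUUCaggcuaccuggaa
Mir222: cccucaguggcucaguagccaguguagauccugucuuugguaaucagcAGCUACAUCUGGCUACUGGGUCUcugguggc
All 58 bases of the Mir126b hairpin are the reverse complement of a stretch of the Mir126a hairpin. The longest run of miR-126b-5p that is complementary to miR-126a-3p has 19 bases. The Mir221 and Mir222 hairpins share no run longer than 9 bases.

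**Figure D1:**
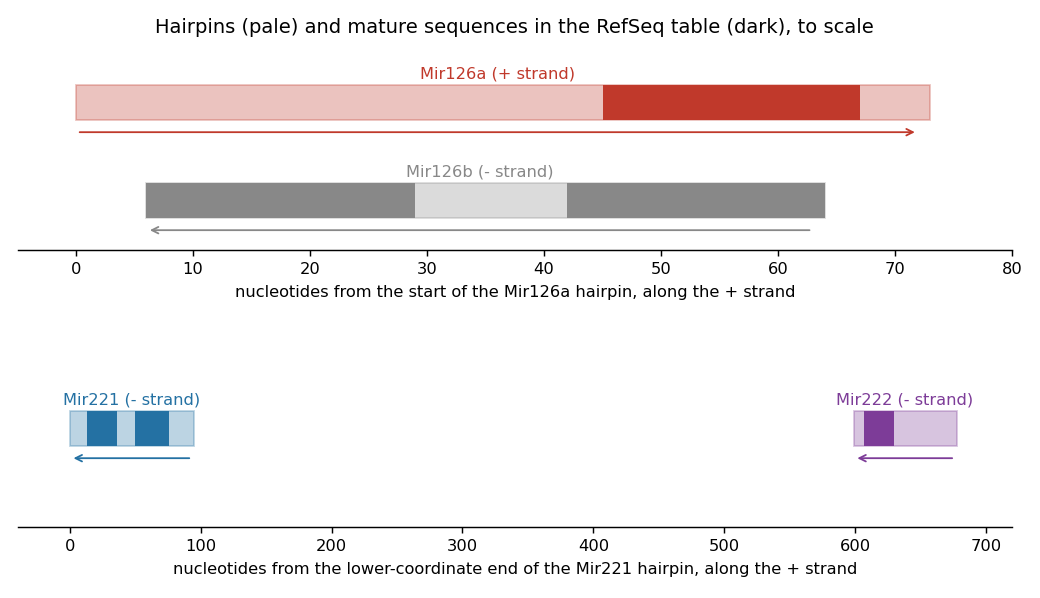
Positions of the hairpins and their mature sequences, to scale, in nucleotides along the plus strand from the lower end of Mir126a (top) and of Mir221 (bottom). Arrows give the direction of transcription. Mir126b lies within Mir126a on the other strand, and Mir222 and Mir221 lie 504 nucleotides apart on 1 strand.

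Sense counts, those on the strand of the gene, totalled 5569959 in replicate 1 and 6039005 in replicate 2. They were 45.9% and 49.2% of 12136246 and 12282789 reads. Multi-mapping reads, a read class of their own, were 26.9% and 28.0% of all reads, and 1281 gene rows had no sense count in either library. Of the cardiomyocyte list, 5 of 6 rows held counts, led by Mir208b, and Mir133a-2 was at 0 in both libraries. The neural rows Mir124a-1, Mir124a-2, Mir124a-3 and Mir9-2 were also at 0.

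Mir126a was abundant in the embryonic heart, while Mir221 and Mir222 were scarce. Mir126a, the vascular integrity miRNA, held 417056 sense counts in replicate 1 and 398725 in replicate 2. These were 74876 CPM (exact Poisson 95% interval 74649 to 75104) and 66025 CPM (65820 to 66230), with a mean of 70450 ± 6259 CPM (SD, n = 2). Among rows as counted, with multi-mapping reads in a class of their own, Mir126a ranked 4 of 1973 in each library. It took 7.49% of all sense counts in replicate 1 (exact Clopper-Pearson 95% interval 7.47 to 7.51) and 6.60% in replicate 2 (6.58 to 6.62). Such intervals hold the counting error of reads alone and leave out the spread between libraries. Reads that are PCR copies of a molecule, if counted separately, would make them too narrow.

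Mir221 held 271 counts in replicate 1 and 212 in replicate 2. Its level was 48.7 CPM in replicate 1 (exact Poisson 95% interval 43.0 to 54.8) and 35.1 CPM in replicate 2 (30.5 to 40.2), a mean of 41.9 ± 9.58 CPM (SD, n = 2). The replicate 1 value was the higher, and the intervals did not overlap. Mir222, its neighbour with the same seed, held 164 counts in replicate 1 and 120 in replicate 2. That was 29.4 CPM (25.1 to 34.3) and 19.9 CPM (16.5 to 23.8), a mean of 24.7 ± 6.77 CPM. Here too replicate 1 was the higher and the intervals did not overlap. Mir221 ranked 222 in replicate 1 and 233 in replicate 2, and Mir222 ranked 246 and 256. Together, Mir221 and Mir222 took 0.00781% of sense counts in replicate 1 (exact Clopper-Pearson 95% interval 0.00709 to 0.00858) and 0.00550% in replicate 2 (0.00492 to 0.00612). Their counts added up to 435 and 332, so counting error is larger for them than for Mir126a.

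**Figure D2:**
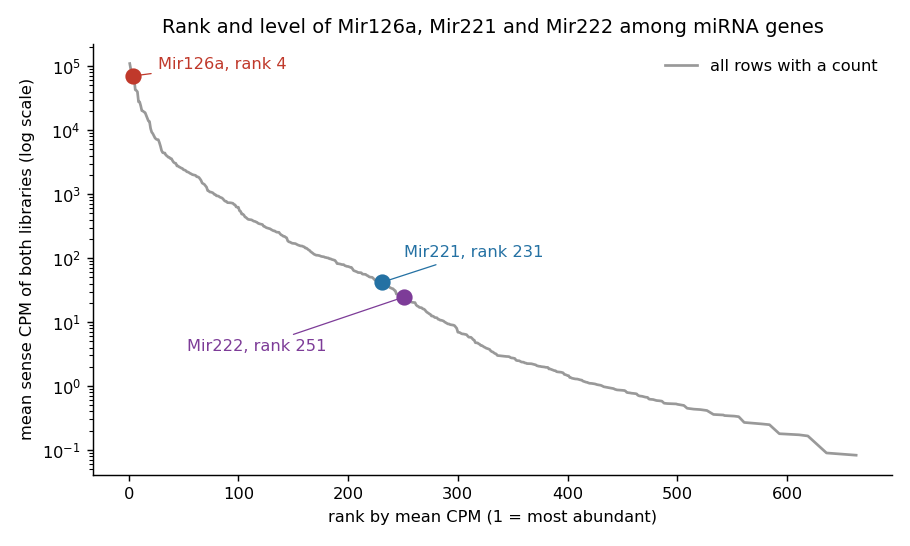
Mean sense CPM of both libraries (log scale) against rank for every miRNA gene with a count. Mir126a stands at rank 4 on the steep start of the curve, and Mir221 and Mir222 stand at ranks 231 and 251.

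Within each library Mir221 exceeded Mir222. Replicate 1 gave a ratio of counts of 1.65, with an exact 95% interval of 1.36 to 2.02, and replicate 2 gave 1.77 (1.41 to 2.23). Both intervals lie above 1, and they overlap each other. The mean log2 ratio of Mir221 over Mir222 was 0.77 ± 0.0682 (SD, n = 2), larger than its spread between the libraries. A read of this assay is taken as a short RNA of about mature length, so counts were compared per gene, and also per nucleotide of annotated hairpin (73 for Mir126a, 95 for Mir221 and 79 for Mir222). Per nucleotide, Mir221 was 1.37 times Mir222 in replicate 1 and 1.47 times in replicate 2. The tables count hairpins, so the arms of a hairpin, such as miR-221-3p and miR-221-5p, cannot be told apart for any member.

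Mir126a exceeded Mir221 and Mir222 together by 959-fold in replicate 1 (exact 95% interval 873 to 1056) and by 1201-fold in replicate 2 (1078 to 1341). The mean log2 ratio was 10.07 ± 0.230 (SD, n = 2). Per nucleotide of hairpin the ratios were 1159 and 1456. The smallest p that exact sign flips over 2 libraries allow is 0.5, so level ratios are set against their SD and carry no p-value.

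The longest run that a mature sequence shared with another of 2202 miRNA transcripts of GENCODE M21, on either strand and leaving out Mir126b, was searched because reads that map to several places have a class of their own. It was 10 bases for miR-126a-3p and for miR-221-3p, 9 for miR-221-5p and 11 for miR-222-3p. Each is shorter than the mature sequence of 22 to 26 bases. Copies outside annotated miRNA genes were not searched, nor were 5p products of Mir126a and Mir222.

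In the endothelial list of 18 symbols, 17 had a row, and the members stood at places 1, 11 and 13 of those 17. These places and the shares and levels of this list hold for rows as counted, because multi-mapping reads form a separate class. Mir126a made up 56.6% of the list's counts in replicate 1 (exact Clopper-Pearson 95% interval 56.5 to 56.7) and 54.7% in replicate 2 (54.5 to 54.8). The other 16 rows together took 5.75% of all sense counts in replicate 1 and 5.48% in replicate 2. After Mir126a came Mir23a, of the miR-23, miR-27 and miR-24 cluster, at 20213 ± 457 CPM, and Mir130a, which represses anti-angiogenic homeobox genes in human endothelial cells, at 19260 ± 53.2 CPM (SD, n = 2 for each value of this list). Mir126a was 3.65 times Mir23a in replicate 1 and 3.32 times in replicate 2. It was 3.88 times Mir130a in replicate 1 and 3.43 times in replicate 2. Both ratios exceeded their spread, with a mean log2 of 1.80 ± 0.0957 over Mir23a and 1.87 ± 0.124 over Mir130a.

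Between Mir130a and Mir221 stood Mir100 (6412 ± 236 CPM), Mir10a (4407 ± 631 CPM), Mir296 (2405 ± 407 CPM), Mir92-1 (1977 ± 224 CPM), the hypoxia miRNA Mir210 (801 ± 98.4 CPM), Mir24-2 (297 ± 9.90 CPM) and Mir27a (239 ± 20.3 CPM). Around Mir222 lay Mir218-2, a miRNA in an intron of the axon guidance gene Slit3, at 31.6 ± 2.29 CPM, and Mir218-1, in an intron of Slit2, at 11.8 ± 0.667 CPM. Mir218-2 had 33.2 CPM in replicate 1 and 29.97 CPM in replicate 2. Both values lay above the 2 values of Mir222 and below the 2 values of Mir221, though in replicate 1 its exact Poisson 95% interval of 28.6 to 38.4 CPM overlapped that of Mir222, and in replicate 2 its interval of 25.8 to 34.7 CPM overlapped that of Mir221. In replicate 1 the Mir218-2 interval lay below that of Mir221 (43.0 to 54.8 CPM). In replicate 2 it lay above that of Mir222 (16.5 to 23.8 CPM). Each side was thus separated by the intervals in 1 library and overlapped in the other. Lowest were Mir217 (1.46 ± 0.282 CPM), Mir216b (0.856 ± 0.195 CPM) and Mir216a (1 count in each library). In this list 10 rows lay above Mir221 and 12 above Mir222.

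**Figure D3:**
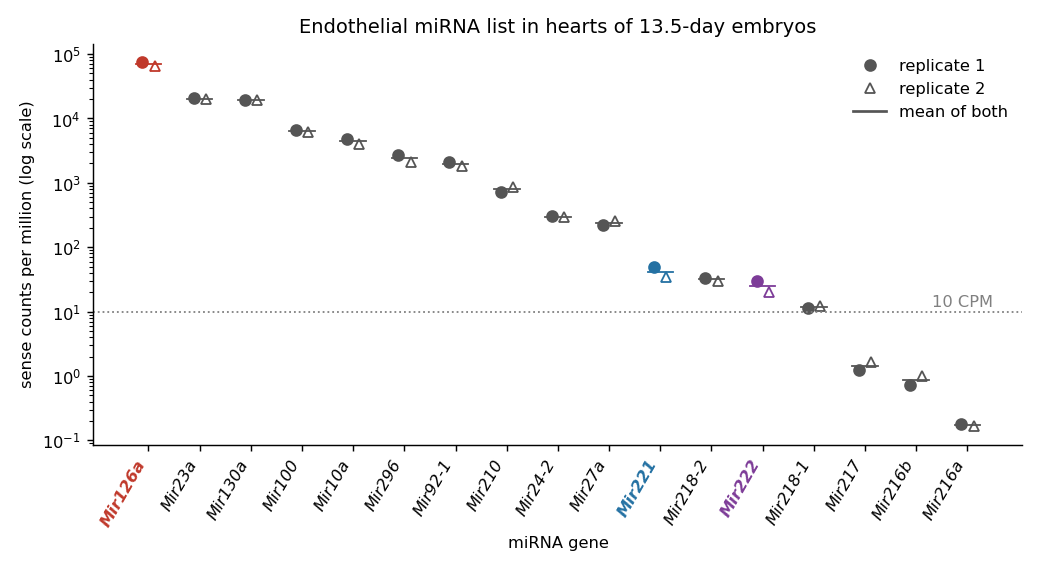
Sense CPM (log scale) of the 17 endothelial list rows, in replicate 1 (circles) and replicate 2 (triangles), with the mean as a short line and 10 CPM dotted. Mir126a lies above the other rows, and Mir221 and Mir222 lie between 10 and 100 CPM with replicate 1 the higher.

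Set against the row with the highest mean sense CPM of each other list, Mir126a was above all but Mir143 of smooth muscle. Which row leads a list holds for rows as counted: multi-mapping reads form a separate class, and the muscle miRNA rows Mir1a-1 (4.07 ± 0.598 CPM), Mir133a-1 (2.89 ± 1.30 CPM) and Mir133a-2 (0 counts) were nearly empty in this heart tissue. Mir126a had 0.889 times the counts of Mir143 in replicate 1 and 0.713 times in replicate 2, a mean log2 ratio of -0.33 ± 0.225. It had 1.79 times the counts of Mir208b, the miRNA of the fetal myosin gene Myh7 in cardiomyocytes, in replicate 1 and 1.49 times in replicate 2 (mean log2 0.71 ± 0.186). Over Mir21a, of the mesenchyme and fibroblast list, the ratios were 4.62 and 3.71 (mean log2 2.05 ± 0.223). Per nucleotide of hairpin the ratios were 0.767 and 0.615 over Mir143, 1.89 and 1.58 over Mir208b, and 5.82 and 4.68 over Mir21a. Each of these 3 differences was larger than its spread between the libraries. In a bulk sample, a greater number of cells of a type and more RNA per cell cannot be told apart, so these ratios give no cell proportions.

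The leading rows of the other lists were far below Mir126a. Mir126a was 75.3 times the epithelial Mir429 in replicate 1 and 85.4 times in replicate 2, and 87.3 and 95.4 times the erythroid Mir451a. It was 170 and 213 times Mir223, which led the leukocyte list on sense counts (2454 and 1870). The leukocyte row Mir142b had no sense count but held more counts than that on its opposite strand (8659 and 6816), which the ratio does not use. Mir126a was 901 and 1254 times the neural Mir137. Over Mir122 of hepatocytes the ratio was 372 in replicate 1 and 112 in replicate 2, the widest spread of these, with a mean log2 of 7.67 ± 1.23.

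**Figure D4:**
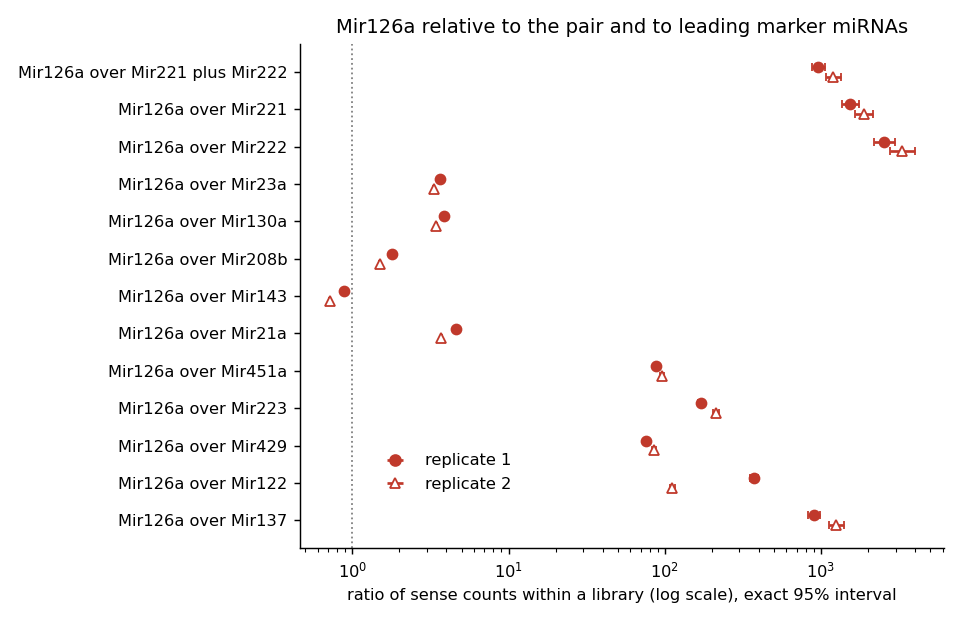
Ratio of Mir126a sense counts to those of Mir221, Mir222 and the leading miRNA of other lists within each library (log scale), with exact 95% intervals that are mostly narrower than the symbols. Ratios over Mir143 lie below 1 in both libraries, and those over Mir221 plus Mir222 are 959 and 1201.

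Mir221 stood below the leading miRNA of each of these lists. It had 0.0567 times the counts of Mir451a in replicate 1 and 0.0507 times in replicate 2, and 0.110 and 0.113 times those of Mir223. Nearest to it was Mir137, with ratios of Mir221 over Mir137 of 0.585 (exact 95% interval 0.502 to 0.681) in replicate 1 and 0.667 (0.558 to 0.796) in replicate 2. The mean log2 ratio was -0.68 ± 0.133. All 7 epithelial rows and all 3 erythroid rows had a higher mean CPM than Mir221, as had 3 of 6 leukocyte rows and 4 of 6 endoderm and liver rows. Not every order held in both libraries. Mir221 was above Mir200a in replicate 1 (48.7 against 45.6 CPM) and above Mir146 in replicate 2 (35.1 against 34.6 CPM). Mir194-2, below Mir221 on the mean, was above it in replicate 2 (37.9 against 35.1 CPM).

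The genes most like a member in level were found by the Euclidean distance of log2(CPM + 1) over the 2 libraries. For Mir126a they were Mir99a at a distance of 0.178, Mir322 at 0.462 and Mir143 at 0.517. Mir126a was above Mir99a in both libraries, but Mir99a, at 66247 and 64908 CPM, reached past the lower Mir126a value of 66025 CPM, so the order of these neighbours is within their spread. Mir322, at 77629 and 90777 CPM and rank 3, lay above both Mir126a values.

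For Mir221 the nearest were Mirlet7c-2 (0.0961), Mir3099 (0.132) and Mir200a (0.228). Mir138-1 ranked just above it and Mir92-2 just below, at mean levels of 42.1 and 41.1 CPM. The ranges of 19 other rows, from rank 216 to rank 239, overlapped the range of Mir221. For Mir222 the nearest were Mir449a (0.0708), and Mir129-2 and Mir294, which tied at 0.134 because both held 178 counts in replicate 1 and 114 in replicate 2. The ranges of 23 other rows, from rank 239 to rank 268, overlapped that of Mir222. The exact ranks of Mir221 and Mir222 are therefore not resolved by 2 libraries, while no row other than Mir99a overlapped the range of Mir126a.

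The libraries were set against each other gene by gene, over the 288 genes whose mean reached 10 CPM. This compares the reads of 2 libraries and no condition. Calls needed both an adjusted p under 0.05 in the exact conditional binomial test (two-sided, Benjamini-Hochberg) and a ratio of at least 1.5 after adding 1 CPM. Of the members, 0 of 3 were called, and 5.90% of all 288 genes (17) were. At an adjusted p under 0.05 and any ratio, 3 of 3 members differed, as did 61.5% of all tested genes, so reads alone separate most genes of these libraries. All 3 members were then higher in replicate 1, against 43.1% of all tested genes that were higher in replicate 1 at that threshold.

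For Mir126a, at 74876 CPM against 66025 CPM, the log2 ratio of replicate 1 over replicate 2 was 0.18. Its absolute value stood at percentile 54.9 of the tested genes. With its large counts the exact test returned a p too small for double precision, and with TMM scaling the adjusted p was 4.1e-130 at a log2 ratio of 0.08. For Mir221 the log2 ratio was 0.46, at percentile 87.8 (exact binomial test, adjusted p = 0.000816). For Mir222 it was 0.54, at percentile 93.1 (exact binomial test, adjusted p = 0.00217). The 1.5-fold limit is 0.58 on this scale, so Mir222 lay just inside it.

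The median log2 ratio of all tested genes was 0.10, and 65.6% of them were above 0, against 49.3% with TMM scaling and 46.0% with DESeq2 size factors. The DESeq2 size factor was 1 in both libraries, so that setting compares counts without scaling. The 17 called genes split into 14 higher and 3 lower in replicate 1, and the 16 called under either of these settings into 8 and 8. TMM scaling lowered each ratio by 0.10, and the members then had log2 ratios of 0.08, 0.36 and 0.45, still above 0. Of the 14 endothelial list rows tested, 11 were higher in replicate 1 on total counts and 0 were called, with a median log2 ratio of 0.11. At any ratio, 8 of the 14 passed the adjusted p in the direction of replicate 1 and 2, Mir210 and Mir27a, in the direction of replicate 2. Of all 288 tested genes, 124 (43.1%) passed in the direction of replicate 1 and 53 in that of replicate 2. Mir23a, Mir130a, Mir100 and Mir24-2 had log2 ratios of 0.05, 0.01, 0.08 and 0.07 on total counts and of -0.06, -0.10, -0.03 and -0.04 with TMM scaling, so their direction depends on the scaling.

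The marker lists are set beside Mir221 and Mir222, with 65.6% of all tested genes higher in replicate 1 on total counts. At any ratio, 124 of the 288 tested genes passed the adjusted p in the direction of replicate 1 and 53 in that of replicate 2. The erythroid rows took 0.126% of sense counts in replicate 1 and 0.0959% in replicate 2, with 3 of 3 tested rows higher in replicate 1, each past the adjusted p. The leukocyte rows took 0.0663% in replicate 1 and 0.0516% in replicate 2. Of 3 tested rows 2 were higher in replicate 1, a share close to that of all tested genes. Those 2 passed the adjusted p, and so did the other, Mir155, in the direction of replicate 2. The epithelial rows took 0.243% in replicate 1 and 0.190% in replicate 2, with 7 of 7 rows above 0 on the log2 scale and 5 of 7 past the adjusted p. Mir141 (log2 0.08, exact binomial test, adjusted p = 0.582) and Mir200a (log2 0.16, exact binomial test, adjusted p = 0.279) did not pass, and Mir141 was at -0.03 with TMM scaling. The mesenchyme and fibroblast rows took 1.97% and 2.07%, with 3 of 4 tested rows higher in replicate 1, 2 of them past the adjusted p. The other of these 3, Mir199a-2, was at 0.08 on total counts and at -0.03 with TMM scaling. Mir21a passed the adjusted p in the direction of replicate 2. The endoderm and liver rows took 0.0812% in replicate 1 and 0.134% in replicate 2, with 2 of 6 tested rows higher in replicate 1. Past the adjusted p were 1 in the direction of replicate 1 and 2 in that of replicate 2. The cardiomyocyte rows took 5.07% in replicate 1 and 5.34% in replicate 2, with 1 of 3 tested rows higher in replicate 1. All 3 passed the adjusted p, 2 of them in the direction of replicate 2. The smooth muscle rows took 8.51% and 9.35%, with 0 of 2 tested rows higher in replicate 1. Here 2 of 2 passed the adjusted p in the direction of replicate 2. Of the neural rows the 1 tested, Mir137, was higher in replicate 1 and passed the adjusted p. The leukocyte shares leave out the opposite counts at Mir142b (8659 in replicate 1 and 6816 in replicate 2). With the ratio limit of 1.5, 1 of 3 erythroid, 1 of 3 leukocyte and 1 of 7 epithelial rows tested were called. So were 2 of 6 endoderm and liver rows and 1 of 1 neural row, against 5.90% of all tested genes. In the cardiomyocyte, smooth muscle, and mesenchyme and fibroblast lists 0 were called. The part of these cell types in the values of Mir221 and Mir222 was not tested.

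**Figure D5:**
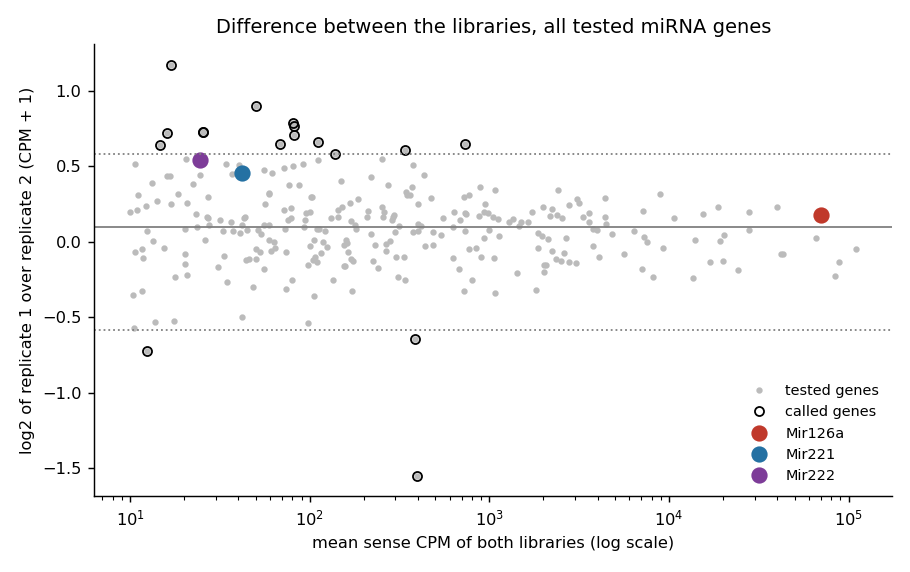
Log2 ratio of replicate 1 over replicate 2 (CPM + 1) against mean CPM (log scale) for 288 genes. Black rings mark the 17 called genes, dotted lines a ratio of 1.5 and the solid line the median of 0.10. Mir126a lies near the median, and Mir221 and Mir222 lie above it and inside the dotted lines.

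Counts opposite to the Mir126a row fall on the strand of Mir126b, whose hairpin is printed above. There were 31 in replicate 1 and 17 in replicate 2, or 5.57 CPM (exact Poisson 95% interval 3.78 to 7.90) and 2.82 CPM (1.64 to 4.51) on summed sense counts. The mean was 4.19 ± 1.94 CPM (SD, n = 2), and the intervals overlapped. They made up 0.00743% of the row's counts on both strands in replicate 1 (exact Clopper-Pearson 95% interval 0.00505 to 0.0105) and 0.00426% in replicate 2 (0.00248 to 0.00683). The rows of Mir221 and Mir222 held no opposite counts in either library, under the same limits of 3 counts (0.539 and 0.497 CPM).

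For comparison, 274 rows with a mean of at least 10 CPM and no GENCODE M21 miRNA on the other strand were examined. Of these, 263 held no opposite count in replicate 1 and 257 held none in replicate 2. The opposite share was above that of the Mir126a row at 9 of the 274 in replicate 1 and at 15 in replicate 2, and the opposite count was higher at 1 and at 2 rows. At that level 14 rows, Mir126a included, have such a miRNA. Their opposite shares ran from 0, as at Mir30e, to 35.3% in replicate 1 and 27.5% in replicate 2 at Mir3074-1. Among the 12 most abundant rows, Mir335 held 2 and 3 opposite counts, Mir126a held 31 and 17, and the other 10 held 0. A few opposite counts therefore also occur where no miRNA is annotated on that strand, and whether those at Mir126a come from Mir126b was not tested.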

How the data were processed

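The authors deposited whole-number read counts per miRNA gene, on both strands, the sense strand and the opposite strand, made on mm10 with GENCODE M4 per the notes deposited beside the tables. No source used here names the aligner, the counter or the trimming. Each table has 1973 gene rows and 4 read classes, which stayed out of totals: unmapped (21.2% and 17.2% of reads), multi-mapping (26.9% and 28.0%), no feature (3.60% and 2.92%) and ambiguous reads. Whether gene rows also hold some multi-mapping reads is not stated.

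Gene names and positions are those of GENCODE M21, also mm10 (1894 of 1973 identifiers matched) and sequences from RefSeq (GRCm38.p6). CPM used summed sense counts. Intervals are exact at 95%. The 2 libraries were compared over every gene whose mean reached 10 CPM with the exact conditional binomial test and Benjamini-Hochberg adjustment. That step was checked on simulated counts with counting error alone, so the check does not cover further spread between libraries. Alternatives used edgeR 4.0.16 (TMM factors) and DESeq2 1.42.0 size factors in R 4.3.3, and other totals, minimums, pseudocounts and strands. Python 3.11.15, numpy 2.4.6, pandas 2.3.3, scipy 1.17.1 and matplotlib 3.10.9 were used. The members and lists were chosen with earlier results of these data known. Named genes were the members, the endothelial list, up to 2 leading rows of other lists, the 3 nearest rows in level and the neighbours in rank. Rows named for opposite counts, for a count of 0 or for a change of sign or of order were chosen after their values were seen. P-values measure only the spread of reads between these libraries.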

Additional observations from a re-analysis of the deposited data

Results flagged for a closer look

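The opposite-strand counts at the Mir126a row are listed here because the level comparisons do not use them and they lie above the 3 counts that a count of 0 allows. Replicate 1 had 31 and replicate 2 had 17, against 417056 and 398725 sense counts. The sense count was 13453 times the opposite count in replicate 1 and 23454 times in replicate 2. Rows at 10 CPM or more without an annotated miRNA on the other strand reached up to 45 opposite counts in replicate 1 and 41 in replicate 2.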

How the results depend on the processing

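With all reads as the total, mean levels were 33413 for Mir126a, 19.8 for Mir221 and 11.6 for Mir222 per 1000000 reads, and the shares were 3.34% for Mir126a and 0.00314% for Mir221 plus Mir222, by construction of the total. Leaving Mir335, the most abundant gene, out of the total gave 79154 CPM and 7.92% for Mir126a. TMM scaling and DESeq2 size factors moved no member's mean level by more than its SD. Relative to total counts, each moves the 2 libraries in opposite directions, so the mean changes little by construction. Per nucleotide of hairpin, the log2 ratio was 0.51 for Mir221 over Mir222 and 10.34 for Mir126a over Mir221 plus Mir222. With both strands counted, Mir221 ranked 241 and Mir222 ranked 261. Without 1 replicate, Mir221 ranked 222 to 233, Mir222 ranked 246 to 256 and Mir126a ranked 4 each time. The number of genes called between the libraries was 39 at a mean of 1 CPM or more, 6 at 100 CPM or more, 45 with no filter, 2 at a ratio of 2 or more and 177 with no minimum ratio. Under the last, each member was called (log2 0.18, 0.46 and 0.54), and under the other 8 settings none of the members tested was. TMM called 16 genes, 8 higher in each library, against 14 higher in replicate 1 and 3 in replicate 2 on total counts. The opposite counts at Mir126a were 79.1 per 1000000 opposite counts. The 20 other level ratios kept their direction in all 100 recomputed values, of which 11 moved by more than their SD. Part of this tally was fixed in advance. Leaving out 1 of 2 libraries cannot move a mean by more than its SD, and each ratio had 1 direction in both libraries. The tally is therefore a description and no test of robustness. Counts of 120 to 271 limit the precision for Mir221 and Mir222.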
